A study of Drosophila melanogaster with 3 samples.

Results

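The genes described here are 8 members of the ZAD family of Drosophila zinc finger proteins: Sry-delta, Sry-beta, pita, ZIPIC, dwg, M1BP, grau and wek. They were listed by name, and all 8 were found among the 13945 protein-coding genes annotated on the 6 chromosome arms. The set was chosen by the pooled signal of the peak at Sry-delta, one of the 25 strongest promoter peaks of the study, so the strength of that peak is given as a description and supports nothing here. The study was a chromatin immunoprecipitation with sequencing (ChIP-seq) for the product of CG2116, an X-linked gene. Whole embryos of mixed sex, aged 0 to 24 h, came from 1 transgenic fly line that stably carries CG2116 with eGFP at its C terminus, and an antibody against GFP was used for the precipitation. There was 1 group of 3 libraries, labelled as biological replicates 1, 2 and 4, so no comparison between conditions exists. Nothing in the labels describes how the embryo collections were kept apart, and some of the variation among the 3 libraries may be technical. No peak list from an untagged line was used, and sites that any GFP precipitation would give were not told apart from sites of CG2116.

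ZAD stands for zinc finger-associated domain, a short zinc-binding fold near the N terminus in which pairs of cysteines hold the metal and through which these proteins pair with one another. A row of C2H2 fingers, the part that reads DNA, follows it. The family is large in insects, and several of its members act at gene starts or chromatin boundaries in the embryo. M1BP binds core promoter motif 1 at many housekeeping genes. Pita, ZIPIC and Zw5, the product of dwg, are insulator proteins, and the first pair recruit the cofactor CP190. Sry-delta activates bicoid in the female germline, Grauzone activates cortex so that eggs can finish meiosis, and Weckle is an adaptor of the Toll receptor. The measurements below concern the starts of the genes that encode these proteins, not the places where the proteins themselves bind.

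Upstream sequences are shown for 6 members, all but pita and grau. They let the DNA before the start with the strongest peak be read beside that of weaker ones. Each is the 120 bases that end just before the annotated transcription start site (TSS) on dm6, from the RefSeq copy of that assembly, in the sense of the gene. None overlaps an annotated untranslated region or coding exon. Capitals mark matches on either strand to any of the 8 words searched, which are spelled out further on. Not every summit or match falls in the bases shown. The IDR summits of M1BP, at -192 bp from the TSS (negative is upstream), and of dwg, at 14 bp, lie outside them. So do the words found at ZIPIC, ATCGAT at -132 to -127 bp and GGTCACAC at 28 to 35 bp.
Sry-delta, chr3R:30043221-30043340, plus strand: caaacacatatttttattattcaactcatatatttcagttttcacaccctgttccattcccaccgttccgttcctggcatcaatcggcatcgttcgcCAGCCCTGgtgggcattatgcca
Sry-beta, chr3R:30039599-30039718, plus strand: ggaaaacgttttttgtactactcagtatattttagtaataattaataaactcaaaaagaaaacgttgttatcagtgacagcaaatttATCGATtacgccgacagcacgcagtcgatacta
wek, chr2L:15768350-15768469, minus strand: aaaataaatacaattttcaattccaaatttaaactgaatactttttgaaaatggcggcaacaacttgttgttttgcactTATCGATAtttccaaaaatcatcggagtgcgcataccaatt
ZIPIC, chr3R:30036871-30036990, minus strand: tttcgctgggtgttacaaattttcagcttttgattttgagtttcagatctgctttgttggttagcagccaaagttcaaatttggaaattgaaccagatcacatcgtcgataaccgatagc
dwg, chrX:2727578-2727697, plus strand: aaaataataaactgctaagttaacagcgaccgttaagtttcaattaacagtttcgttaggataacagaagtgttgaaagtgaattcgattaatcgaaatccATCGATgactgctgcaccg
M1BP, chr3R:8731699-8731818, minus strand: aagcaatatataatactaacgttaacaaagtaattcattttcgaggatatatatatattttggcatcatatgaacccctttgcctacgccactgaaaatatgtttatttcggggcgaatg

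Every one of the 8 genes had a peak at its start. The authors' thresholded list, made by irreproducible discovery rate (IDR) and holding 7137 peaks called on the 3 libraries together, placed a summit within 500 bp of a TSS of 8 of 8 members, beside 5941 of all 13945 genes, or 42.6%. With a window of 250 bp or of 1000 bp the count was again 8 of 8 members, beside 37.7% and 45.6% of all genes. The relaxed pooled list of 30000 peaks did so for 8 of 8 members as well, beside 60.4% of all genes. The relaxed lists of the single replicates, again 30000 peaks each, held a summit for 8 of 8 members in replicates 1, 2 and 4, beside 59.2%, 58.5% and 60.3% of all genes. The members were chosen with these data in view, so the counts were not tested. Throughout, the signal of a peak is the peak caller's own enrichment value as the authors deposited it. For a replicate it is given as relative signal, meaning that the summit nearest to the IDR summit, at most 100 bp away, had its signal divided by a median. That median was taken in the same replicate over all summits matched to IDR peaks, and was 77.8, 99.0 and 133 in replicates 1, 2 and 4. The peak lists carry no read totals, so depth, and with it the counting precision of each value, is unknown.

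On dm6, Sry-delta (FBgn0003512), Sry-beta (FBgn0003511), ZIPIC (FBgn0039740) and M1BP (FBgn0037621) lie on 3R, with starts at 30043341, 30039719, 30036870 and 8731698. The genes pita (FBgn0034878) and grau (FBgn0001133) lie on 2R, with starts at 23554712 and 21011921. The gene wek (FBgn0001990) starts at 15768349 on 2L and dwg (FBgn0000520) at 2727698 on X.

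Sry-delta stood far above the others. Its relative signal was 49.0 in replicate 1, 41.0 in replicate 2 and 47.6 in replicate 4, a mean of 45.9 ± 4.32 (SD, n = 3). All 3 libraries thus placed it within a narrow band, with a coefficient of variation of 9.42%. The peak (3R, 30042881 to 30043799) was 919 bp wide, against a median of 500 bp over the IDR list. Wide peaks also stood at zf30C and Cp190, at 871 and 1039 bp, so the width was not particular to Sry-delta. The pooled signal of the Sry-delta peak was 47.3 times the IDR list median and 211 times the pooled list median. It ranked 26 among IDR peaks, and 26, 32 and 22 in the lists of replicates 1, 2 and 4, where it stood at 204, 166 and 195 times the median of the whole list. Among the 5166 IDR peaks with a summit near a start it ranked 25, just inside the limit that led to the choice. The next one, at aqz, had a pooled signal of 13971 against 14056 for Sry-delta and a relative signal of 44.5 ± 8.99. The promoter peaks closest in pooled signal, 3 above and 3 below, were those nearest to MESR4, Doa, a LAMMER kinase gene, Fmr1, which encodes the fragile X RNA-binding protein, aqz, fl(2)d, of the RNA methylation machinery, and cnn, the centrosomin gene. Their mean relative signals ran from 44.0 to 46.9, and each of these means lay within the replicate range of Sry-delta, 41.0 to 49.0, so their order is not resolved.

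The other 7 members had ordinary peaks. Sry-beta, the paralogue of Sry-delta, came next, at 2.31, 2.26 and 2.59 in replicates 1, 2 and 4, a mean of 2.39 ± 0.177 (SD, n = 3). Within a library Sry-delta was 18.1 to 21.2 times as strong as Sry-beta, a mean ratio of 19.2 ± 1.72, and the ranges of the genes were far apart. The Toll adaptor gene wek stood at 2.08, 1.93 and 1.66, a mean of 1.89 ± 0.212, below Sry-beta in all 3 replicates. The 2.39 of Sry-beta exceeded the 1.33 that was the median of all bound genes with a value.

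The peak at M1BP moved between libraries. Its main IDR summit, at -192 bp, stood at 1.48 in replicate 2 and 1.95 in replicate 4. Replicate 1 had no summit within 100 bp of it, and its summit near the TSS of M1BP lay at -321 bp, at 0.842 times its median. That position falls between the main summit and a weaker IDR summit at -391 bp, whose pooled signal was 45.9% of the main one and which lies 2 bp from the start of CG8202. The mean of 1.71 ± 0.334 therefore rests on 2 replicates, and with a match distance of 200 bp, which takes in replicate 1, it was 1.42 over 3.

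Among the insulator protein genes, pita stood at 1.84, 1.40 and 1.12 in replicates 1, 2 and 4, a mean of 1.45 ± 0.362 (SD, n = 3). It is the only member with 2 annotated starts, and each had an IDR summit of similar pooled signal, 415 at the outer start and 401 near the inner one, though the latter lies 279 bp from the inner start of pita and 41 bp from that of Dcp-1. ZIPIC stood at 0.983, 0.758 and 0.941, a mean of 0.894 ± 0.120. The gene for Zw5, dwg, stood at 0.955, 0.571 and 0.956, a mean of 0.827 ± 0.222. Replicate 2 gave the lowest value for both ZIPIC and dwg. ZIPIC and dwg lay below 1, the median at matched summits, in every replicate, and they are the ones that dropped out, leaving 6 of 8, when only the IDR peaks above the median signal were kept, a set that covers 29.4% of all genes. The meiosis regulator gene grau was the steadiest member, at 1.14, 1.16 and 1.18, a mean of 1.16 ± 0.0198.

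Neighbours in this order were not all separated. Sry-delta and Sry-beta, Sry-beta and wek, and grau and ZIPIC kept their order in 3 of 3 replicates. M1BP stood above pita in the 2 replicates with a value for both, but with a match distance of 200 bp its mean of 1.42 fell just under the 1.45 of pita, so that order turns with the setting. The order of wek and M1BP held in 1 of 2 replicates, that of pita and grau in 2 of 3 and that of ZIPIC and dwg in 2 of 3, so these pairs did not differ beyond their spread.

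**Figure D1:**
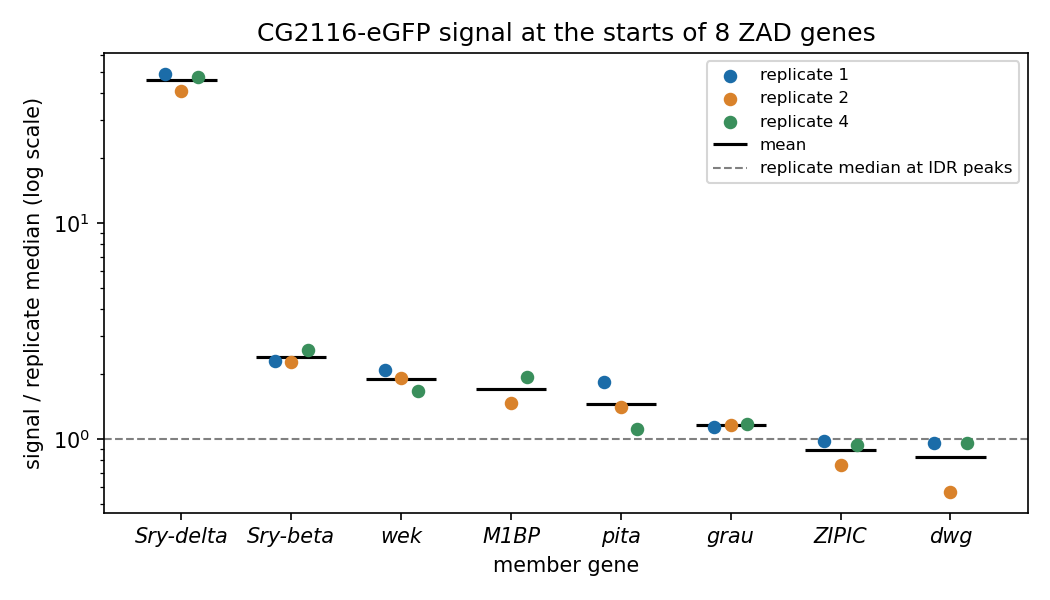
Relative signal (log axis) of the IDR summit at each member's start, 1 point per replicate, with the mean as a bar and the replicate median over matched IDR peaks as a dashed line at 1. The 3 points of Sry-delta lie between 41.0 and 49.0, while the other members have means from 0.827 to 2.39, and M1BP has 2 points.

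Set among all genes with an IDR summit at a start, the members apart from Sry-delta lay around the middle of the range. Their pooled signals ran from 244 at dwg to 720 at Sry-beta with a median of 415. All 5941 bound genes had a median of 408 and quartiles of 266 and 671. Thus dwg lay below the lower quartile and Sry-beta above the upper one. With Sry-delta the median over 8 members was 441. Sry-delta was stronger than 99.4% of bound genes, Sry-beta than 77.4%, wek than 67.3% and M1BP than 57.8%. The genes pita, grau, ZIPIC and dwg stood above 51.0%, 45.0%, 27.4% and 20.7% of bound genes.

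**Figure D2:**
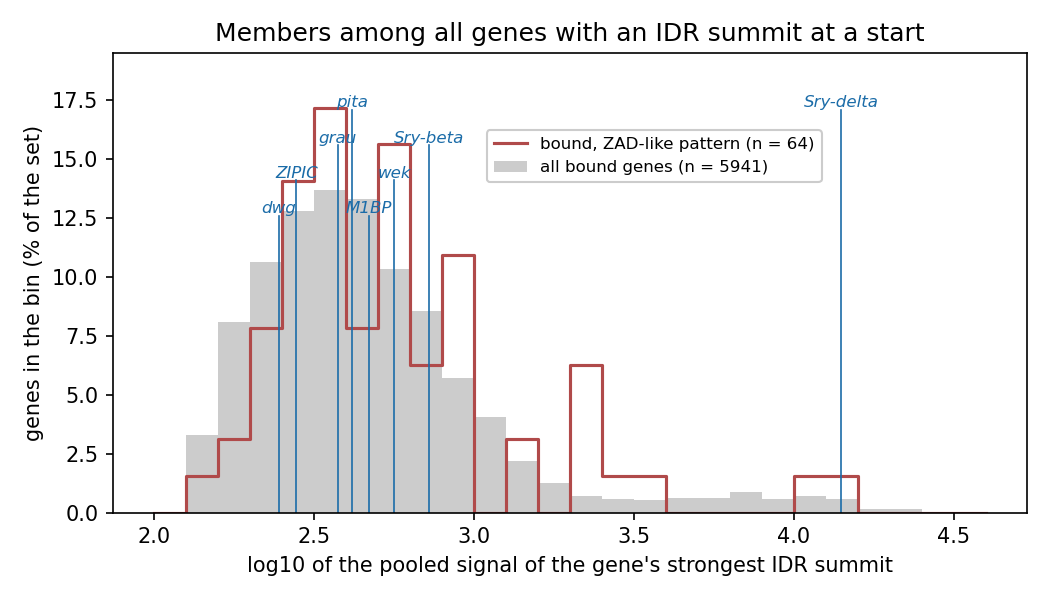
Distribution of the log10 pooled signal of the strongest IDR summit per gene, as the percentage of genes in each bin, for all 5941 bound genes (grey) and for the 64 bound genes whose protein has a ZAD-like pattern (red line). Vertical lines mark the members: 7 fall between 244 and 720 in pooled signal and Sry-delta at 14056.

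Summits sat close to the annotated starts. The IDR summit lay at -16 bp from the TSS of Sry-delta, where negative values are upstream, and at -17, -21 and -15 bp in replicates 1, 2 and 4, a range of 6 bp. At wek it lay at -20 bp, at Sry-beta at -41 bp and at ZIPIC at -46 bp, while at grau, dwg and pita it fell 2, 14 and 17 bp downstream. Of the 8 members, 7 had their summit within 100 bp of the TSS, beside 52.7% of all bound genes, and 5 had it upstream, beside 89.6%. The exception in distance was M1BP. Among the 7 members with a matched summit in all 3 replicates, positions spanned 65 bp at ZIPIC and 6 to 20 bp at the others. At M1BP the strongest summit near the start spanned 129 bp, since replicate 1 had it at -321 bp, beyond the match distance. At pita the strongest summit of replicate 4 lay instead 256 bp downstream of the inner start, the one near Dcp-1. It stood at 1.38 times the replicate median, against 1.12 at the outer start.

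**Figure D3:**
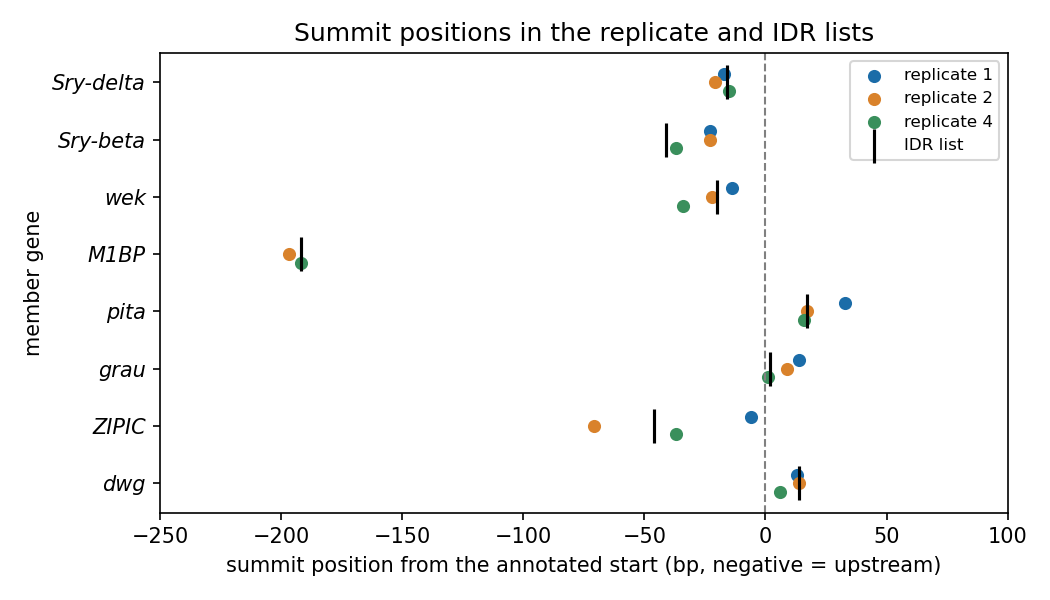
Position of the summit relative to the annotated start in each replicate (points) and in the IDR list (black ticks), in bp with negative values upstream and the start as a dashed line. Summits of 7 members lie within 100 bp of the start, M1BP lies near -192 bp in replicates 2 and 4, with its replicate 1 summit at -321 bp not drawn because it was not matched, and the points of ZIPIC span 65 bp.

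At 4 members a weaker pooled summit stood beside a stronger one. There were 5 such summits within 400 bp, at pita (1 at each start), dwg, M1BP and wek. All 5 lay at the higher coordinate, 199 to 217 bp away, whichever way the gene ran. The share of all bound genes with such a summit was not counted, so this is not given as a trait of the members. Their signal was 10.7% to 45.9% of the stronger summit. Sry-delta, Sry-beta, ZIPIC and grau had no such neighbour in the pooled list. No member's strongest IDR summit had a stronger pooled summit within 400 bp.

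The members differ in whether the start is theirs alone. At Sry-delta, pita, ZIPIC, dwg and wek no other protein-coding gene had a TSS within 500 bp of the strongest IDR summit. That makes 5 of 8 members, beside 2441 of the 5941 bound genes. Sry-beta shares its annotated start, with a gap of 0 bp, with Sry-alpha, which acts in cellularization of the blastoderm and is not a ZAD gene, and janA starts 186 bp away on the opposite strand. Both TSSs lie within 500 bp of the same summit, so its signal cannot be given to one gene. The summit at M1BP lies midway between its TSS and that of CG8202, which starts 393 bp away head to head, at 192 bp from the first and 201 bp from the second. The summit at grau lies 2 bp from its own TSS and 51 bp from that of CG9346, which starts 49 bp away head to head. The signals at M1BP and grau likewise cannot be given to one gene. The inner start of pita lies 238 bp from that of Dcp-1, a caspase gene on the other strand, and the summit there, the one nearer to Dcp-1, stood at a mean relative signal of 1.31.

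Of the 8 members 4 lie on 3R, and 3 of these share a small stretch of it, where the serendipity genes are. The start of ZIPIC is 2849 bp from that of Sry-beta and 6471 bp from that of Sry-delta, and Sry-beta starts 3622 bp before Sry-delta. Across the map of this cluster, the pooled list had 7 summits and the IDR list 5. The pooled signal was 278 at ZIPIC, 720 at the start shared by Sry-beta, Sry-alpha and janA, and 14056 at Sry-delta. On the other side of Sry-delta, the region between RpL32, a ribosomal protein gene, and CG7943 had summits of 1559 and 779. No pooled summit lay within 500 bp of a TSS of ocn or janB, genes that sit between ZIPIC and Sry-beta. A summit of 42.6 lay near an inner start of Sry-alpha and 1 of 65.3 lay away from starts, just behind the end of Sry-delta, and neither was in the IDR list. The high value at Sry-delta belonged to 1 summit, and the other summits of the map reached 1559 at most.

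**Figure D4:**
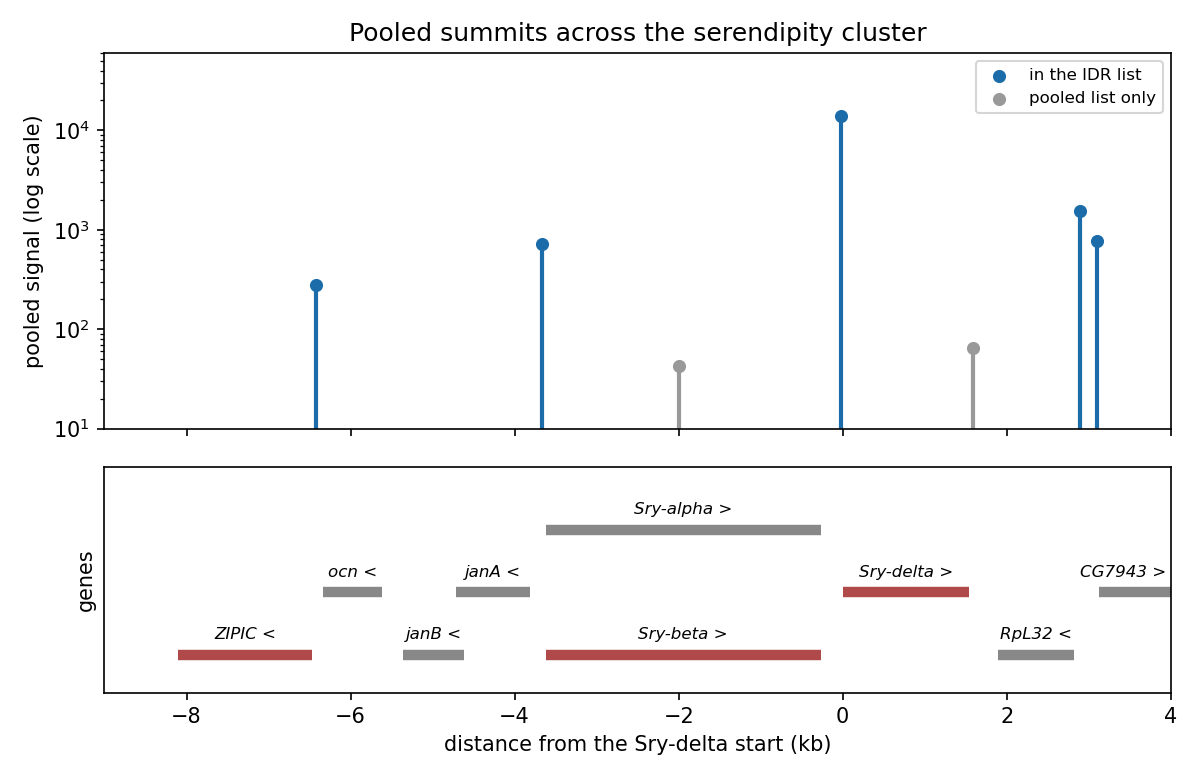
Pooled summits over the serendipity cluster, with the pooled signal on a log axis (top) and annotated protein-coding genes with their direction (bottom, members in red), against the distance in kb from the start of Sry-delta. The bar of CG7943 runs past the right edge. Sry-delta reaches 14056, the next highest summit, between RpL32 and CG7943, reaches 1559, and ZIPIC 278.

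The DNA at the summits was searched, on both strands and within 100 bp, for 5 words. They were TATCGATA, the element bound by DREF and BEAF-32, GGTCACAC, the core of motif 1 bound by M1BP, GCAACNCT, a word from an earlier account of these data, the E-box CAGCTG and GAGAG, bound by GAGA factor. TATCGATA was found at 2 of 8 members, wek and pita, beside 16.3% of the 5166 promoter summits. In wek, shown above, it covers -41 to -34 bp, and at pita -68 to -61 bp. GGTCACAC was found at ZIPIC and grau, beside 9.79% of promoter summits, and not at M1BP itself. CAGCTG was found at wek, beside 15.8%. GCAACNCT and GAGAG were found at 0 of 8 members, beside 8.77% and 16.6% of promoter summits. The Sry-delta summit held none of the 5 words.

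Another 3 words were added after the sequences had been seen, and were not tested. All words of 6, 7 and 8 letters within 50 bp of a summit had been ranked by how much commoner they were at the 100 strongest promoter summits than at the rest. From the top of that ranking ATGCAACC and CAGCCCTG were kept because the Sry-delta summit holds them, and other words ranked there were passed over because it does not. No other member had either word within 100 bp of its summit. In Sry-delta, CAGCCCTG covers -23 to -16 bp, with the summit on its last base, and is the word in capitals above. ATGCAACC lies on the opposite strand, read along the gene as GGTTGCAT, from 1 to 8 bp after the start. ATGCAACC was present at 16 of the other 99 of the 100 strongest promoter summits, 16.2%, and at 0.771% of the remaining 5059 that are not members. CAGCCCTG was present at 13 of the 99, 13.1%, and at 3.60%. These shares come from the summits on which the words were picked and describe only them. GCAACNCT, which Sry-delta lacks, was present at 43 of the 99, 43.4%, and at 8.10% of the rest. That word came from an earlier account of these same data, so its shares too are description only. ATCGAT, the inner part of TATCGATA and so overlapping it, was picked by reading the members' sequences. It was found at 5 members, Sry-beta, wek, pita, ZIPIC and dwg, beside 33.5% of promoter summits. The members' summits without it were those of Sry-delta, M1BP and grau.

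Further ZAD genes listed by name had, where bound, mean relative signals from 0.722 to 4.98. Of 16 further ZAD genes listed by name, 10 had an IDR summit at a start, beside the 42.6% of all genes, and 13 had one in the pooled list, beside 60.4%. Only Odj and D19A had no other protein-coding TSS within 500 bp of the summit, so the values of the other 8 cannot be given to one gene. The strongest was pad, a repressor of proneural genes, at 5.59, 5.21 and 4.13 in replicates 1, 2 and 4, a mean of 4.98 ± 0.760 (SD, n = 3), from a summit that also lies at the start of the splicing factor gene SF2. Odj, whose product is found in heterochromatin, stood at 1.88 ± 0.229, close to wek. The value was 1.60 ± 0.151 for prg, 1.12 ± 0.452 for D19B, 1.11 ± 0.450 for Meics, 1.04 ± 0.305 for mld, a regulator of ecdysone synthesis, and 0.791 ± 0.218 for trem, which acts in meiotic recombination. The remaining bound ones lacked a matched summit in part of the libraries: hang stood at 1.75 ± 0.721 (n = 2), Zif at 1.36 ± 0.325 (n = 2) and D19A at 0.722 in replicate 4 only. Zif also has a stronger pooled summit within 400 bp, and its own IDR signal was 0.774 times the list median. The genes without an IDR summit at a start were ouib, which drives ecdysone synthesis, nom, ranshi, kipf, which guides the piRNA cluster protein Rhino, Nnk and Neu2. Of these, ouib, ranshi and Neu2 had none in the pooled list either.

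Of these genes without an IDR summit, ouib, nom and ranshi lie in the cluster that holds M1BP. M1BP lies beside ranshi, CG8159, ouib and nom, whose starts are 2005, 4844, 6219 and 8524 bp from its own. M1BP was the only one of these genes with an IDR summit at its start. It shares that summit with CG8202, so the signal cannot be given to M1BP alone. The pooled signals near nom and CG8159, 58.3 and 70.4, were close to the pooled list median of 66.7.

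To see the family without relying on names, annotated coding sequences were translated and searched for a ZAD-like pattern. It asks for paired cysteines 30 to 60 residues apart within the first 120 residues, followed by at least 2 C2H2 fingers. The pattern was found in 89 genes, among them 8 of 8 members and 13 of the 16 other ZAD genes (not hang, Neu2 or mld). It was not found in CG2116, whose longest annotated protein has 598 residues and 5 matches to the finger pattern. Of the 81 genes with the pattern outside the members, 56 had an IDR summit at a start, 69.1%, beside 42.6% of all genes and 90 of the 180 genes with at least 2 C2H2 fingers and no ZAD-like pattern. In the pooled list the shares were 96.3%, 60.4% and 77.2%. The pattern is a simple one, and it also takes in genes that are not listed here as ZAD genes. The median pooled signal of those bound was 501, beside 408 for all bound genes and 437 for the other finger genes. No test was made of these differences. No other gene's TSS lay at the summit for 24 of the 64 bound genes with the pattern, 37.5%, beside 41.1% of all bound genes.

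Within this wider set Sry-delta was the strongest. Close behind it was zf30C, at 43.7, 43.8 and 34.9 in replicates 1, 2 and 4, a mean of 40.8 ± 5.10 (SD, n = 3), from a summit at -282 bp. The replicate ranges of zf30C and Sry-delta overlap. Next were indra, which maintains ribosomal DNA copy number in the germline, at 11.6 ± 2.65, CkIIalpha-i1 at 10.7 ± 1.20 and CG2889, which shares its summit with nocte, at 7.67 ± 1.57. Of the 64 bound genes with the pattern, 4 exceeded a mean relative signal of 10, a share near that of all bound genes, 294 of 5938 or 4.95%. The 4 include Sry-delta, whose strength led to the choice of the members, so this count is description only.

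**Figure D5:**
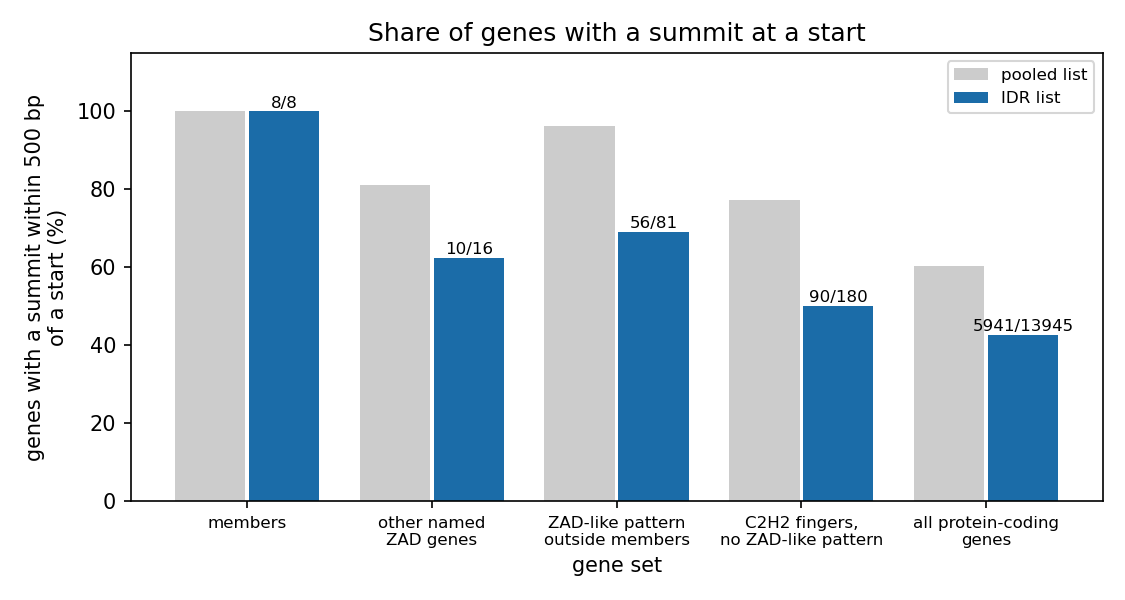
Percentage of genes in each set with a summit within 500 bp of a start in the pooled list (grey) and in the IDR list (blue), with counts for the IDR list. All 8 members are covered in both lists, and the IDR share is 69.1% for other genes with the ZAD-like pattern, 90 of 180 genes for other C2H2 genes and 42.6% for all protein-coding genes.

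Partners and targets of the member proteins were covered at 8 of 11, beside 42.6% of all genes. The summits at Cp190, Chro, gfzf and pll also lie within 500 bp of the starts of CG4338, Ssl1, Sas-4 and TfIIA-L, so their values cannot be given to one gene. CP190, the cofactor of Pita and ZIPIC, has a gene whose start stood at 28.3, 28.4 and 24.6 in replicates 1, 2 and 4, a mean of 27.1 ± 2.20 (SD, n = 3). Chro, which encodes the chromosomal protein Chromator, stood at 16.6 ± 1.21, and gfzf, which encodes a cofactor of M1BP, at 1.70 ± 0.238. The summits at Cp190 and Chro were stronger than those at pita, ZIPIC and dwg in every replicate, while the mean of gfzf lay within 1 SD of that of M1BP. Bicoid, the target of Sry-delta, stood at 1.01 ± 0.299, while cort, the target of Grauzone, had no summit in the pooled list. In the Toll pathway of Weckle, cact, the inhibitor, stood at 2.17 ± 0.525, the kinase gene pll at 1.28 ± 0.226, Myd88, the adaptor that Weckle contacts, at 1.20 ± 0.103 and tub at 0.775 ± 0.109. The receptor gene Tl and the transcription factor gene dl had a pooled summit at a start, at signals of 61.4 and 112, and none in the IDR list. The tagged gene itself, CG2116, stood at 2.99, 5.39 and 2.85, a mean of 3.74 ± 1.43, from a summit at -167 bp that also lies near the start of cyr. This is above Sry-beta and below Sry-delta in every replicate.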

How the data were processed

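The authors deposited peak lists for each replicate, for the pooled replicates and for the peaks past the IDR threshold, on dm6 and dm3. The dm6 lists were used. A text deposited with them says that a relaxed list came from the alignments and 1 more file, whose kind it does not state. The aligner, peak caller and IDR cutoff were not given in the sources used here. Each signal deposited by the authors is the caller's value per peak, and its scale depends on caller and depth. Sonicated fragments were 200 to 800 bp, per the labels.

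Starts came from Ensembl release 115, sequence from RefSeq, read with Python 3.11.15, numpy 2.4.6 and pandas 2.3.3. A gene with a summit at most 500 bp from any TSS was called bound, and the strongest such summit was used. Relative signal has the match distance of 100 bp and the divisor given above. Summit joins were tested on simulated data. Coordinates are 1-based. The symbol Kipf was read as kipf, the annotation's spelling.

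The members, lists, words and named genes were chosen with earlier results of these data known. Named genes were the members, their nearest neighbours within 1000 bp, the promoter peaks ranked near Sry-delta, the listed ZAD, partner and target genes, the 4 strongest further genes with the ZAD-like pattern, and CG2116. The other genes of the M1BP and serendipity clusters were named after their values were seen. Alternatives changed windows, match distance, divisor, peak set, residue spacing and replicates.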

Additional observations from a re-analysis of the deposited data

How the results depend on the processing

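With the median of the whole replicate list as divisor, the relative signal of Sry-delta was 188 and the median over members 6.48, against 45.9 and 1.58, since weak peaks lower that median. The other 7 members moved likewise, and match distances of 50 and 200 bp moved none of them except M1BP, to 1.42 at 200 bp, which puts it below pita. Without 1 replicate, Sry-delta ranged from 44.3 to 48.3 and the median over members from 1.49 to 1.68. Without Sry-delta, a choice added after seeing the data, the median was 1.45. The count of bound members was 8 with windows of 250 and 1000 bp, in the pooled list, with IDR summits that have no stronger pooled summit within 400 bp, and with each replicate left out, which keeps IDR peaks recovered among the 7137 strongest summits of both others but still takes the list from all 3. Without replicate 2 or without replicate 4, M1BP counted only through its weaker summit at -391 bp, which lies 2 bp from the start of CG8202. Genes with the ZAD-like pattern were bound at 63 and 66 of 89 with windows of 250 and 1000 bp, at 86 in the pooled list, at 49 above the IDR median (added after seeing the data) and at 52 of 71 with a spacing of 40 to 50 residues, which Sry-delta and wek do not meet. No paired analysis was possible because there is 1 group. Depth is unknown, so the precision of single values rests on 3 libraries.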
